A study of Mus musculus with 2 samples.

Results

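The 10 electrolyte absorption transporters described here were Slc26a3, Slc26a2, Slc9a3, Slc9a2, Slc4a4, Atp12a, Scnn1a, Scnn1b, Scnn1g and Trpm6. They were taken by exact gene symbol from the 32285 genes of the count matrices, and all 10 were found. The counts came from single-nucleus RNA sequencing of frozen mouse colon, in which each captured nucleus carries a barcode and each RNA molecule a unique molecular identifier (UMI). Both libraries came from mice given dextran sodium sulfate (DSS), a polymer that injures the colonic epithelium, at 2% in the drinking water for 4 cycles of 3 days with 4 days of recovery, and tissue was taken at day 28. The mice were 8 to 12 weeks old when treated. The WT library pooled the colons of 3 wild-type littermates. The HIF-1α KO library pooled those of 3 Ncr1cre+ Hif-1αfl+/fl+ mice, in which the Ncr1 (NKp46) promoter drives Cre in NK cells and in innate lymphoid cells that express NKp46. No library without DSS was analysed here. The comparison asked how the loss of HIF-1α in NKp46+ cells bears on the rest of the injured colon.

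Each genotype was 1 library, so no difference between genotypes has a replicate check and no test was made. All intervals given are 95% intervals that cover counting error only, and levels are UMIs per 1000000 UMIs of the same group of nuclei (CPM). A gene was read between genotypes where a group held at least 50 of its UMIs over both libraries, and a difference of 1.5-fold was the size counted. In bulk sums of nuclei, fewer nuclei of a type and less RNA per nucleus cannot be told apart, so levels are given within classes of nuclei. After the filter 4884 WT and 4702 KO nuclei remained, with a median of 2058.5 UMIs in WT and 4197 in KO, and the members held 24437 UMIs in WT and 52018 in KO. The libraries shared 3 barcodes. The deleted gene could not check the labels, because the deletion is made in NKp46+ cells and the 3' tag need not lie in the deleted part. Hif1a stood at 172 CPM in WT and 199 CPM in KO over all nuclei. Ncr1 itself had 1 UMI in WT and 0 in KO, where the floor of 3 UMIs is 0.127 CPM.

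The colon absorbs sodium and chloride through pairs of exchangers in the apical membrane of its surface cells. A sodium/hydrogen exchanger takes up sodium, a chloride/bicarbonate exchanger takes up chloride, and water follows. In the distal colon the epithelial sodium channel (ENaC), made of the alpha, beta and gamma subunits encoded by Scnn1a, Scnn1b and Scnn1g, adds an uptake route that aldosterone raises. Cells gain these transporters as they move from the crypt base to the surface, and loss of the chloride exchanger Slc26a3 in humans causes chloride-losing diarrhoea.

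Nuclei were placed along the crypt by other marker genes, since the members and the pathway lists were kept out of the clustering. The surface absorptive colonocyte class held 407 WT and 706 KO nuclei in 2 clusters, the larger led by Ceacam20 (342 and 575 nuclei) and the smaller by Ly6m and interferon-response genes such as Ifit1 (65 and 131 nuclei). Of the 9 surface markers, 5 passed the marker thresholds in the Ceacam20 cluster and 8 in the Ly6m cluster. The other epithelial classes were the Gsdmc colonocytes, the Htr4 crypt enterocytes, the crypt base stem nuclei, the cycling nuclei and 3 goblet clusters led by Slc12a8, St6gal1 and Clca1. The crypt base stem cluster scored 1.08 for its own markers and 1.07 for those of the Htr4 crypt enterocyte, a near tie. Clusters with no name held 26.6% of WT and 11.4% of KO nuclei. Fibroblast and smooth muscle nuclei (501 in WT, 247 in KO) should lack most of these transporters, and their level is given as the background of free RNA. They were shallower, with medians of 1939 UMIs in WT and 2301 in KO against 3931 and 5990.5 in surface nuclei. A level at or below this background therefore does not show that a gene was absent from a deeper class. The surface and Gsdmc classes together made 19.2% of WT and 30.01% of KO nuclei. Over the 10 classes with at least 50 nuclei in both libraries, 7 members were highest in the surface class in both libraries. The exceptions were Slc4a4, Scnn1b and Scnn1g, and the WT intervals of Scnn1a in the surface and goblet classes overlapped. With no integration and at resolution 2 the number was 6, without Trpm6, and with each nucleus placed by its own marker score it was 6, without Slc9a3.

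**Figure D1:**
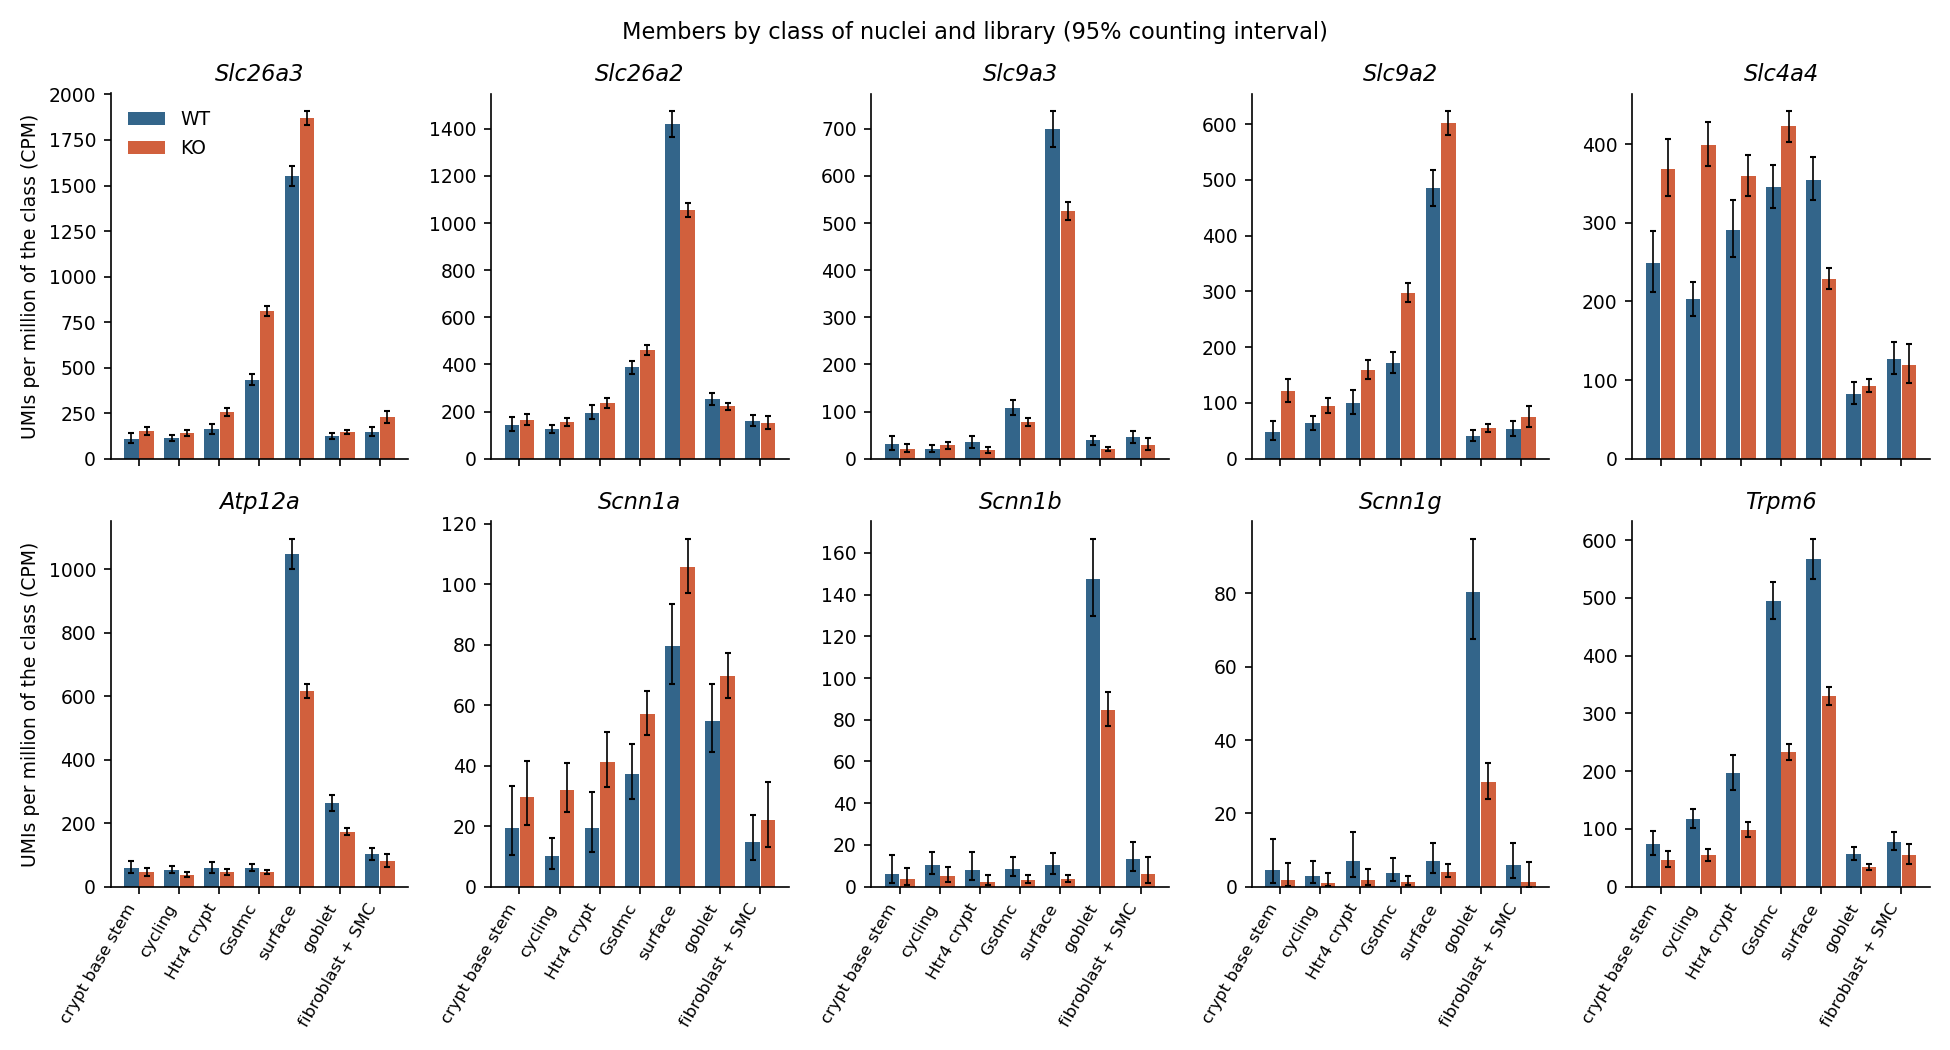
Level of each member (y axis, CPM of the class, linear from 0) in classes of nuclei from the crypt base to the surface, in goblet nuclei and in fibroblast and smooth muscle (SMC) nuclei, for WT (blue) and KO (orange); bars are 1 library each and error bars are 95% counting intervals. 7 of the panels peak in the surface class, Slc4a4 is spread over the crypt, and Scnn1b and Scnn1g stand out in goblet nuclei.

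Slc26a3, the apical chloride/bicarbonate exchanger (chr12:31390871-31473917, GRCm38, plus strand), had the steepest gradient of the 2 anion exchangers. In WT it stood at 1551 CPM in the surface class (1495 to 1609), 434 CPM in Gsdmc colonocytes and 163 CPM in Htr4 crypt enterocytes, against a background of 148 CPM. In KO the same classes held 1872 CPM (1835 to 1909.7), 809 CPM and 258 CPM, against a background of 228 CPM. Crypt base stem, cycling and goblet nuclei were at or below the background in both libraries. The surface level was 14.0 times the crypt base stem level in WT and 12.3 times in KO. Between genotypes the surface difference was small, with a log2 ratio of KO over WT of 0.27 (0.21 to 0.33). In Gsdmc colonocytes KO was higher by 0.90 on the log2 scale (0.79 to 1.01), and the background was higher by 0.62 as well. A processed pseudogene, Gm9359, lies on the same strand inside the annotated span of Slc26a3.

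Slc26a2, which carries sulfate and chloride, was at 1420.4 CPM in WT surface nuclei (1367 to 1476) and 1055 CPM in KO (1027 to 1083), against backgrounds of 160.0 and 153 CPM. Unlike Slc26a3 it was lower in KO there, by a log2 ratio of -0.43 (-0.50 to -0.36), which did not reach 1.5-fold. In Gsdmc colonocytes it stood at 387 CPM in WT and 462 CPM in KO, a log2 ratio of 0.25. Its highest cluster was the Ly6m cluster in both libraries, at 2016 CPM in WT and 1268 CPM in KO, a log2 ratio of -0.67 that passed 1.5-fold.

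Slc9a3, the sodium/hydrogen exchanger NHE3 that pairs with Slc26a3 in sodium chloride uptake (chr13:74121457-74169442, plus strand), had the largest fold from crypt base to surface of the members read. It stood at 699 CPM in WT surface nuclei (661 to 738) and 525 CPM in KO (506 to 546), 22.2 and 24.5 times the crypt base stem level. Gsdmc colonocytes held 108 and 78.2 CPM, and Htr4 crypt enterocytes 34.5 and 17.6 CPM, which was below the background of 45.6 and 29.2 CPM. Surface nuclei carried 66.4% of its UMIs in WT and 79.8% in KO. Within the class it was unevenly spread. The tenth of surface nuclei with most Slc9a3 held 60.6% of its UMIs in WT and 66.9% in KO while holding 14.5% and 15.1% of all UMIs, and 1 KO nucleus had 184 Slc9a3 UMIs against a median of 1.

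Slc9a2, the other apical sodium/hydrogen exchanger (chr1:40680574-40769273, plus strand), was more even. It stood at 485 CPM in WT surface nuclei (454 to 518) and 602 CPM in KO (581 to 624), against backgrounds of 53.0 and 74.2 CPM. The surface log2 ratio of KO over WT was 0.31 (0.20 to 0.42), and that in Gsdmc colonocytes was 0.79 (0.61 to 0.97), from 172 to 298 CPM. In the surface class, Slc9a2 was thus higher in KO and Slc9a3 lower, and neither difference reached 1.5-fold.

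The promoter windows of Slc26a3 and Slc9a3 are shown because these exchangers work as a pair, and their levels over classes were alike (Pearson r = 0.86 over the 20 sums of class by library) while their surface ratios between genotypes had opposite signs. RefSeq windows of 250 bases before to 50 after a gene's start (GRCm38.p6) matched 6 members, namely Slc26a3, Slc9a3, Slc4a4, Scnn1b, Scnn1g and Trpm6. The Slc26a3 window is set on a start 47.3 kb inside the gene's outer bounds given above, where 4 of its 7 GENCODE transcripts start within 100 bases. Capitals mark matches to any of these motifs, read on both strands: TTTAT, the core that CDX factors bind, in 40.0% of all 32851 windows; CAAAG, shared by HNF4 and TCF sites, in 53.9%; TGTTCT, an element of steroid receptor sites, in 19.0%; ACGTG, part of E-box and HIF sites, in 19.6%; and the steroid receptor palindrome, AGAACA and TGTTCT with 3 bases between them, which holds the TGTTCT element on each strand.
Slc26a3, chr12:31437969-31438268, plus strand: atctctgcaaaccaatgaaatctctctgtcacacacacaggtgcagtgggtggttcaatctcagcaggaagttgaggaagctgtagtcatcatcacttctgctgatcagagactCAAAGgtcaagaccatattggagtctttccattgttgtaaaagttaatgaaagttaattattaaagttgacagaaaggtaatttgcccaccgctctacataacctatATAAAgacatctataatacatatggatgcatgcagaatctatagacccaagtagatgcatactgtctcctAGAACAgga
Slc9a3, chr13:74121163-74121462, plus strand: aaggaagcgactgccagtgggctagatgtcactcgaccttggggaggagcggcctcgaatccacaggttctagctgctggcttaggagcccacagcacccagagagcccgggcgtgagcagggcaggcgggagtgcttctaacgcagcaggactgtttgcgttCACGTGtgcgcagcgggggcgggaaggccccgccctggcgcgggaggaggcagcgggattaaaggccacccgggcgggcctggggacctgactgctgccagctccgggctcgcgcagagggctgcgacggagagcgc
The Slc26a3 window held the CAAAG motif at bases 115 to 119, the CDX-type motif on the other strand at bases 222 to 226 and the steroid receptor element on the other strand at bases 292 to 297, counted from 1 at the window's first base, and 39.3% of its bases were G or C. The Slc9a3 window held the ACGTG motif on both strands, at bases 164 to 169, and 68.7% of its bases were G or C, against a median of 52.7% over all windows. These are matches of letters only.

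The sodium exchanger and the potassium pump leaned to different surface clusters, though each stood above the background in both. Atp12a, the catalytic subunit of the colonic hydrogen/potassium ATPase, which takes up potassium (chr14:56365068-56388550, plus strand), stood at 1047 CPM in WT surface nuclei (1001 to 1095) and 616 CPM in KO (595 to 638), against backgrounds of 103 and 81.5 CPM. In the Ly6m cluster it was at 1509.9 CPM in WT and 1226 CPM in KO, 1.64 and 2.66 times the Ceacam20 cluster. Slc9a3 ran the other way, at 829 and 574 CPM in the Ceacam20 cluster and 212 and 334 CPM in the Ly6m cluster, 3.91-fold lower there in WT and 1.72-fold lower in KO. Slc26a2 was 1.60 and 1.27 times higher in the Ly6m cluster, and Trpm6 was 1.69-fold and 1.39-fold lower. Since clusters were made from the same nuclei, these are descriptions. Hoxb13, a marker of the distal colon, stood at 189 CPM in WT and 151 CPM in KO in the Ly6m cluster and at 50.7 and 34.8 CPM in the Ceacam20 cluster. It was named after its values were seen, and the part of colon position was not tested.

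Single surface nuclei leaned the same way, though many held both genes. With every nucleus thinned to 1000 UMIs, an Atp12a UMI was found in 26.7% of the 116 WT surface nuclei that had an Slc9a3 UMI and in 46.0% of those that had none. The KO shares were 24.7% of 170 nuclei and 34.9%. No surface nucleus had under 1000 UMIs. The reverse held for the exchanger pair, since Slc9a3 was found in 36.4% of WT surface nuclei with Slc26a3 and in 15.9% of those without, and in 29.6% and 15.7% in KO. Fibroblast and smooth muscle nuclei, thinned alike, showed Atp12a UMIs in 8.58% of WT and 9.58% of KO nuclei. Median depths before thinning were 3931 and 5990.5 UMIs in surface nuclei and 1939 and 2301 UMIs in fibroblast and smooth muscle nuclei.

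Sorted without thinning, 20.6% of WT surface nuclei held Slc9a3 but no Atp12a UMIs, 32.2% Atp12a but no Slc9a3, 32.9% both and 14.3% neither. The KO shares were close, at 19.8%, 31.9%, 33.0% and 15.3%. Slc26a2 stood at 769.7 CPM in the WT nuclei with Slc9a3 alone and 1733 CPM in those with Atp12a alone, whereas in KO the values were 935 and 954 CPM. Slc4a4 stood at 205 and 501 CPM in WT and at 281 and 167 CPM in KO, so its order was reversed. Slc26a3 stood at 1466 and 1286 CPM in WT and 2573 and 1263 CPM in KO. Saa1, an acute-phase gene that epithelium makes in inflammation, was at 180 and 1529 CPM in WT and at 425 and 1452 CPM in KO, so it was higher with Atp12a in both libraries. Ceacam20, the surface marker, was at 697 and 608 CPM in WT and 941 and 979 CPM in KO. The distal colon Hox genes summed to 89.9 CPM (32 UMIs) and 170.0 CPM (94 UMIs) in WT and to 84.2 CPM (87 UMIs) and 108 CPM (161 UMIs) in KO. The intervals of the KO sums overlapped. Hoxb13 held 16 and 63 of these UMIs in WT and 55 and 90 in KO. Hoxa13 ran the other way, at 28.1 and 14.5 CPM in WT and 16.5 and 14.7 CPM in KO. Ceacam20, Saa1, Hoxb13, Hoxa13 and this split were picked after their values were seen.

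**Figure D2:**
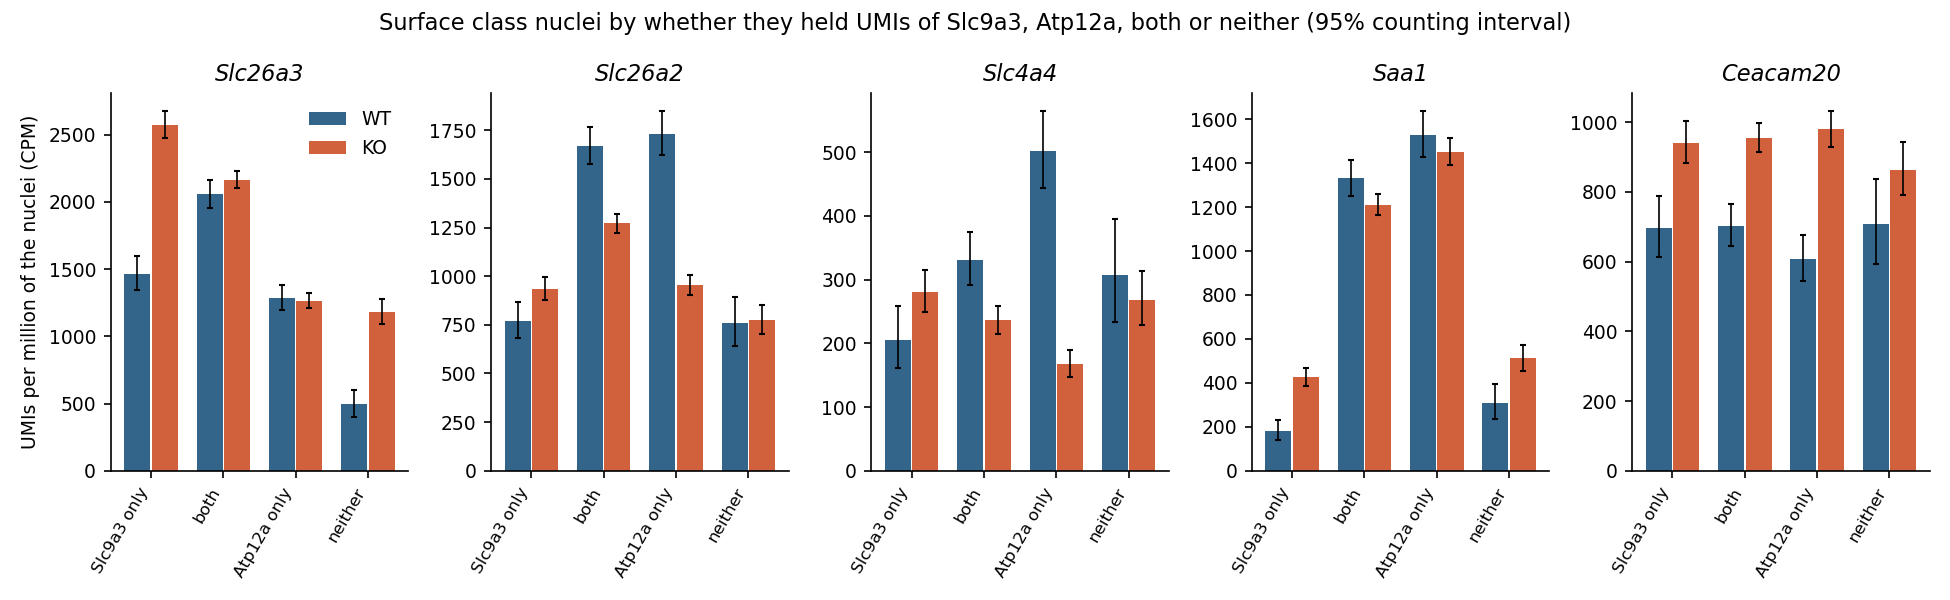
Levels (y axis, CPM of the nuclei, linear from 0) of Slc26a3, Slc26a2, Slc4a4, Saa1 and Ceacam20 in surface class nuclei that held UMIs of Slc9a3 only, of both Slc9a3 and Atp12a, of Atp12a only, or of neither, for WT (blue) and KO (orange), with 95% counting intervals. Saa1 is high wherever Atp12a was found (1529 CPM in WT and 1452 CPM in KO with Atp12a only), and Slc4a4 has opposite orders in the 2 libraries.

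Between genotypes Atp12a was lower in KO surface nuclei by a log2 ratio of -0.77 (-0.85 to -0.68). The difference lay mostly in the Ceacam20 cluster, from 923 to 460.2 CPM (-1.005), and was -0.30 in the Ly6m cluster. Of the 8 members read in the Ceacam20 cluster, 3 were lower, Atp12a, Slc4a4 and Trpm6, and none higher, where 10.5% of 8036 genes were higher and 14.7% lower. In the Ly6m cluster Slc9a3 was higher and 2 were lower, Slc26a2 and Slc4a4, where 12.2% of 4487 genes were higher and 14.7% lower. Slc9a3 had a log2 ratio of -0.53 (-0.63 to -0.43) in the Ceacam20 cluster and 0.65 (0.31 to 1.02) in the Ly6m cluster. These ratios are of summed UMIs, and their intervals leave out spread between nuclei. With nuclei thinned to equal depth, Slc9a3 was found in 11 of 65 WT and 24 of 131 KO Ly6m nuclei, which are close shares. In the Ceacam20 cluster it was found in 105 of 342 WT and 146 of 575 KO nuclei. Whether a few nuclei made the Ly6m difference was not tested.

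Slc4a4, the sodium bicarbonate cotransporter of the basolateral membrane (chr5:88886818-89239653, plus strand), was not highest in the surface class in both libraries. In WT it stood at 355 CPM in the surface class (328 to 383), 346 CPM in Gsdmc colonocytes and 291 CPM in Htr4 crypt enterocytes, and these neighbours overlapped in their intervals. Its level was below that of the surface class in crypt base stem (249 CPM, 212 to 289) and cycling nuclei (203 CPM, 182 to 225), with a background of 127 CPM. In KO the order changed, with 229 CPM in the surface class (216 to 242) below Gsdmc colonocytes (423), cycling (399), crypt base stem (369) and Htr4 crypt enterocytes (359.8), over a background of 119 CPM. The log2 ratio of KO over WT was -0.64 (-0.77 to -0.50) in surface nuclei, 0.29 in Gsdmc colonocytes, 0.57 (0.31 to 0.84) in crypt base stem and 0.98 (0.79 to 1.16) in cycling nuclei. The surface value fell short of 1.5-fold in 3 of 12 alternatives, being -0.40 with every nucleus thinned to 1000 UMIs. Outside the epithelium the neuron or glia nuclei, 39 in WT and 31 in KO, held 546 and 597 CPM.

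The ENaC subunits were unevenly spread over cell types. The beta and gamma subunits Scnn1b (chr7:121865038-121918514) and Scnn1g (chr7:121734479-121768475) are neighbours on the plus strand, with 96.6 kb between them, and both were found chiefly in the goblet cluster led by Clca1, a secreted protein of the mucus. That cluster held 3.95% of WT and 6.59% of KO nuclei but 58.5% and 60.7% of all Scnn1b UMIs and 63.0% and 68.9% of all Scnn1g UMIs. Of the 10 goblet markers, 8 passed the thresholds there, and Clca1, Fcgbp, Bcas1, Zg16 and Tff3 were among its 10 leading genes. Scnn1b stood at 292 CPM in WT (254 to 333) and 155 CPM in KO (138 to 173) in that cluster, against backgrounds of 13.3 and 6.09 CPM. Scnn1g stood at 174 CPM in WT (145 to 206) and 63.8 CPM in KO (53.1 to 76.1), against 5.80 and 1.22 CPM. The surface class, by contrast, held 19 Scnn1b UMIs in each library, 10.3 CPM in WT and 3.71 CPM in KO, which did not exceed the background.

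In the Clca1 cluster, 56.5% of WT nuclei and 55.2% of KO nuclei held a Scnn1b UMI, against 2.00% and 1.62% among fibroblast and smooth muscle nuclei. The median depths of that cluster were 3230 and 5518 UMIs. With every nucleus thinned to 1000 UMIs the shares were 20.2% and 15.8%, and 0.798% and 0.833% in fibroblast and smooth muscle nuclei. For Scnn1g the thinned shares in the Clca1 cluster were 19.2% and 6.13%. The goblet cluster led by St6gal1 held 81.2 and 67.2 CPM of Scnn1b, and the one led by Slc12a8 held 16.2 and 20.7 CPM, near the background. Over the 20 sums of class by library, Scnn1g was the gene whose log2 levels were most like those of Scnn1b among the 14393 genes with at least 50 UMIs (Pearson r = 0.95), followed by Sytl5 and Best2 (0.92 and 0.91). These points share libraries and depth, and no test was made. Within the thinned Clca1 cluster, Scnn1g was found in 23.1% of the 39 WT nuclei with Scnn1b and in 18.2% of those without. The KO shares were 10.2% of 49 nuclei and 5.36%.

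Scnn1a, the alpha subunit that the channel needs to conduct (chr6:125320659-125344943, plus strand), was not distributed like its partners. It stood at 79.5 CPM in WT surface nuclei (67.1 to 93.4) and 106 CPM in KO (97.0 to 115), and at 75.6 and 78.7 CPM in the Clca1 cluster, against backgrounds of 14.9 and 21.9 CPM. Its correlation over class sums was 0.25 with Scnn1b and 0.32 with Scnn1g, and 0.79 with Slc26a2. The Clca1 goblet cluster thus held the highest Scnn1b and Scnn1g of all clusters together with Scnn1a, while the St6gal1 cluster held 4 and 10 Scnn1g UMIs. Atp12a stood high there too, at 516 CPM in WT and 355 CPM in KO, and Slc26a2 at 357 and 257 CPM. Slc26a3 was at 115 and 166 CPM and Slc9a3 at 49.0 and 23.7 CPM, both near or below the background.

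**Figure D3:**
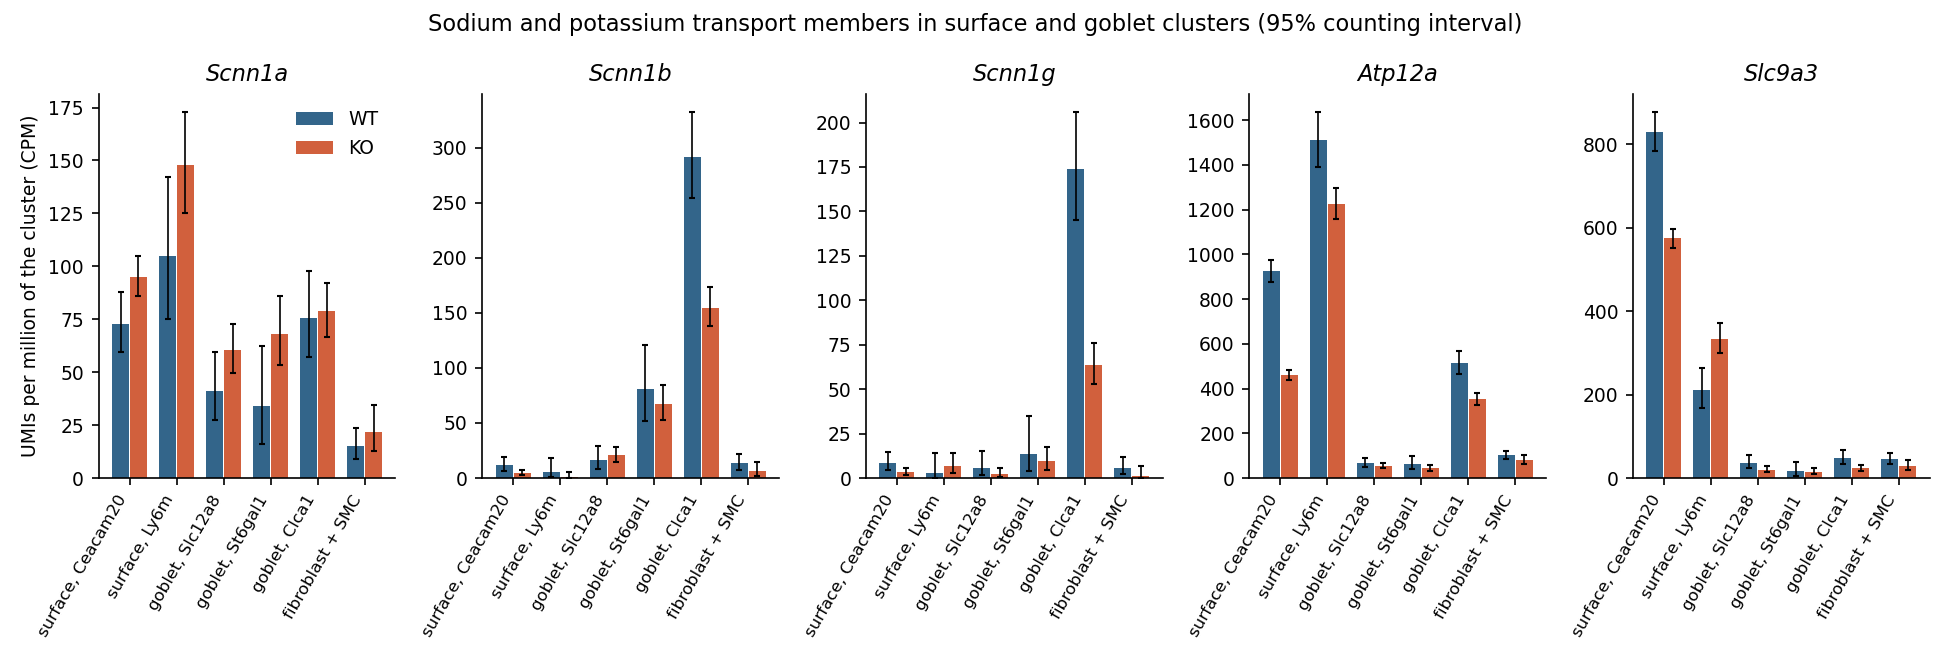
Levels (y axis, CPM of the cluster, linear from 0) of the 3 ENaC subunits, Atp12a and Slc9a3 in the 2 surface clusters, the 3 goblet clusters and fibroblast and smooth muscle (SMC) nuclei, for WT (blue) and KO (orange), with 95% counting intervals. Scnn1b (292 and 155 CPM) and Scnn1g (174 and 63.8 CPM) are highest in the Clca1 goblet cluster, while Slc9a3 is highest in the Ceacam20 surface cluster.

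In that cluster KO was lower for Scnn1b by a log2 ratio of -0.91 (-1.17 to -0.66) and for Scnn1g by -1.44 (-1.81 to -1.08). For Scnn1a the log2 ratio was 0.06 (-0.39 to 0.52). Of the 10 members, 1 was at least 1.5-fold higher in KO in that cluster (Slc9a2) and 4 lower (Slc9a3, Scnn1b, Scnn1g and Trpm6), where 11.6% of all 6311 genes read were higher and 10.6% lower. Of these 5, Slc9a2, Slc9a3 and Trpm6 were at the level of the background, which came from shallower nuclei. Hoxb13 was lower in the same nuclei, at 63.6 CPM in WT and 27.3 CPM in KO (-1.22, -1.81 to -0.63). Of the 6 distal Hox genes it alone reached 50 UMIs there. Over all nuclei, none of 5 distal Hox genes read passed 1.5-fold (median 0.03). The 2 proximal ones read over all nuclei, Hoxb5 and Hoxb6, were lower (median -1.38), where 16.5% of 14393 genes were lower and 13.3% higher. Values over all nuclei also move with the share of each cell type. The part of colon position in the ENaC values was not tested.

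Trpm6, the channel that takes up magnesium (chr19:18749983-18892511, plus strand), was at least 1.5-fold lower in KO in the surface, Gsdmc, Htr4 crypt, crypt base stem, cycling and goblet classes. It stood at 66.1 CPM in WT and 64.3 CPM in KO in enteroendocrine nuclei and at 52.8 and 54.8 CPM in fibroblasts, where the intervals of the libraries overlapped. In surface nuclei it stood at 567 CPM in WT (533 to 602) and 329.9 CPM in KO (314 to 346), a log2 ratio of -0.78. In Gsdmc colonocytes it stood at 495 and 233 CPM (-1.09), in Htr4 crypt enterocytes at 197 and 98.4 CPM (-0.999) and in cycling nuclei at 118 and 54.1 CPM (-1.12). The background was 77.9 and 54.8 CPM, a log2 ratio of -0.51 with an interval that reached 0.02. The levels of cycling nuclei, crypt base stem and goblet nuclei in KO did not exceed it.

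Read together in surface nuclei, 8 members had enough UMIs. None was at least 1.5-fold higher in KO and 3 were lower, Trpm6, Atp12a and Slc4a4, where 10.2% of 8746 genes were higher and 15.6% lower. The median log2 ratio of the 8 was -0.42, and that of all genes read was -0.08. In Gsdmc colonocytes 3 of 8 were higher (Slc26a3, Slc9a2 and Scnn1a) and Trpm6 was lower, where 10.9% of 8932 genes were higher and 8.73% lower, and the members' median was 0.27 against 0.04. In Htr4 crypt enterocytes the same 3 were higher and 2 lower (Slc9a3 and Trpm6), against 13.6% and 7.93% of 7265 genes. Of these, Slc26a3 (163 and 258 CPM) and, in WT, Scnn1a (19.5 CPM) were near the background, and Slc9a3 (34.5 and 17.6 CPM) was below it. In crypt base stem nuclei Slc9a2 was higher and Trpm6 lower among 6 members read, against 16.7% and 7.1% of 5947 genes. In cycling nuclei Slc4a4 and Scnn1a were higher and Trpm6 lower among 8, against 12.9% and 7.21% of 8068 genes. In WT, Slc9a2 in crypt base stem nuclei (47.9 CPM) and Scnn1a in cycling nuclei (10.0 CPM) did not exceed the background. In goblet nuclei none was higher and 5 of 10 were lower, Slc9a3, Atp12a, Scnn1b, Scnn1g and Trpm6, against 11.1% and 10% of 9175 genes. Slc9a3 (38.7 and 20.5 CPM) and Trpm6 (56.7 and 33.7 CPM) were below the background there. In fibroblast and smooth muscle nuclei, Slc26a3 was higher and Slc9a3 lower among 7, against 10.7% and 6.97% of 6457 genes. Over all nuclei Slc26a3, Slc9a2 and Scnn1a were higher in KO, by 0.75, 0.80 and 0.84, and Scnn1g and Trpm6 were lower, by -1.04 and -0.61, where 13.3% of 14393 genes were higher and 16.5% lower. The background levels of Slc26a3, Slc9a2 and Scnn1a were higher in KO too. With the background subtracted, the log2 ratios of Slc9a2 and Scnn1a over all nuclei were 0.96 and 1.03. With the KO clusters weighted by the share of UMIs they hold in WT, the same log2 ratios of Slc26a3, Slc9a2 and Scnn1a were 0.42, 0.54 and 0.56, none past 1.5-fold, and Scnn1b joined the lower ones at -0.80. The median share of mitochondrial UMIs in surface nuclei was 0.309% in WT and 0.954% in KO, and its part in these values was not tested.

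**Figure D4:**
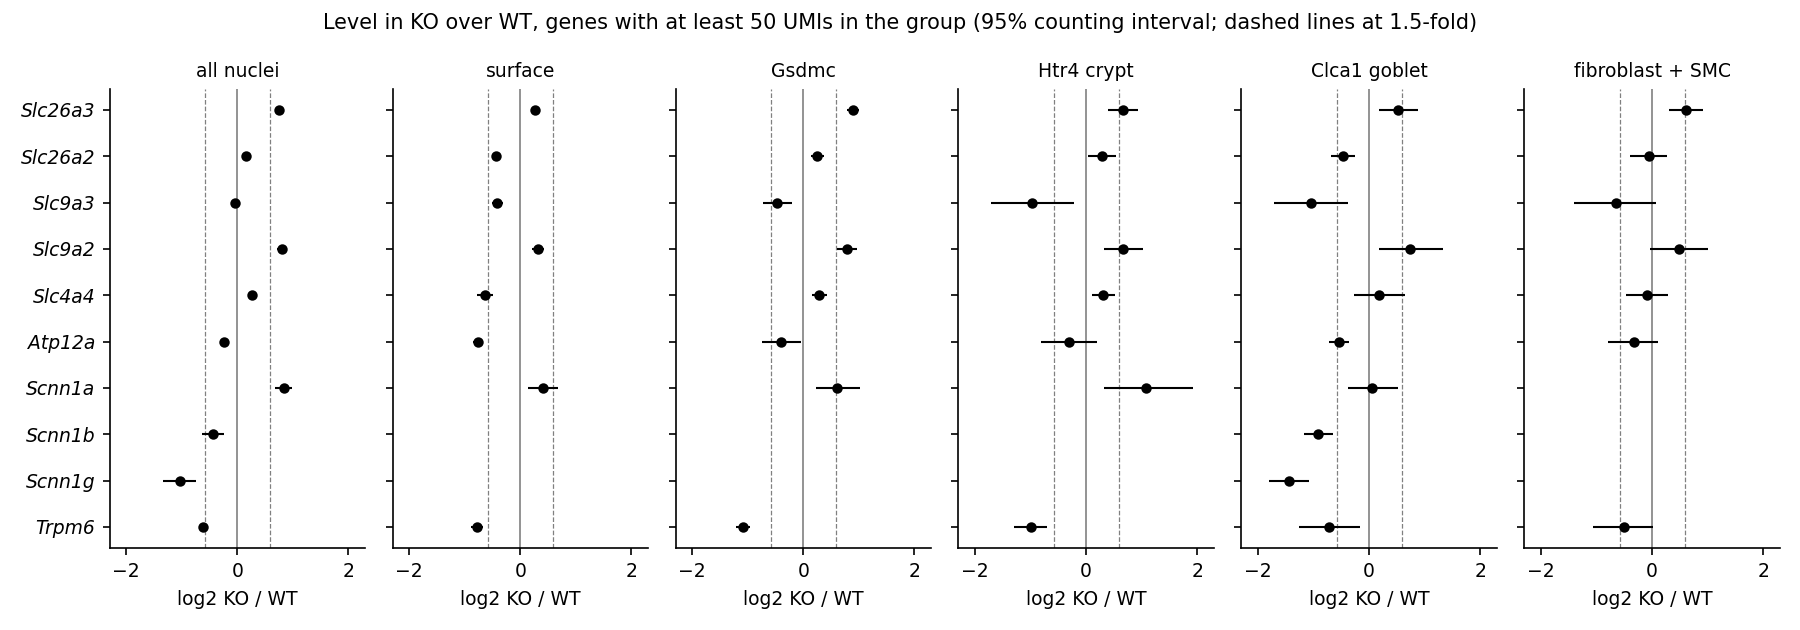
Log2 ratio of KO over WT (x axis) for each member (y axis) in all nuclei and in 5 groups of nuclei, with 95% counting intervals; dashed lines mark 1.5-fold and genes under 50 UMIs in a group have no point. Trpm6 lies left of 0 in every panel, Slc26a3 and Slc9a2 right of it, and Slc4a4 changes side between the surface class (-0.64) and the Gsdmc class (0.29).

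Genes that control ENaC and respond to adrenal steroids were listed together as 12 genes. Sgk1, a kinase induced by aldosterone and glucocorticoids that keeps ENaC at the membrane, stood at 191 CPM in WT surface nuclei and 47.6 CPM in KO (-2.00, -2.24 to -1.76). In the Clca1 goblet cluster it stood at 225 CPM (170 UMIs) in WT and 13.4 CPM (26 UMIs) in KO, a log2 ratio of -4.07 (-4.73 to -3.47). It was lower by -2.68 in Gsdmc colonocytes as well, and fibroblast and smooth muscle nuclei held 34.8 and 8.52 CPM, with under 50 UMIs in all. Fkbp5, a chaperone that glucocorticoids induce, was lower in KO in each group read, from 524 to 200.3 CPM in surface nuclei (-1.39, -1.51 to -1.26), from 299.6 to 80.3 CPM in the Clca1 cluster (-1.90) and from 176 to 102 CPM in fibroblast and smooth muscle nuclei (-0.78, -1.16 to -0.41). Hsd11b2, the enzyme that keeps corticosterone off the mineralocorticoid receptor, stood at 134 CPM in WT and 59.7 CPM in KO in the Clca1 cluster (-1.17), and Tsc22d3, another glucocorticoid target, at 51.7 and 28.8 CPM (-0.84).

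The receptors themselves were not lower. Nr3c2, the mineralocorticoid receptor, stood at 4429 CPM in WT and 6486 CPM in KO in surface nuclei (0.55, 0.52 to 0.59), and Nr3c1, the glucocorticoid receptor, at 167 and 189 CPM (0.18, -0.01 to 0.37). Nr3c2 was higher in fibroblast and smooth muscle nuclei too, by 0.65. In surface nuclei 1 of the 12 genes was at least 1.5-fold higher (Tmprss4, a protease that can activate ENaC, 87.6 to 141 CPM, 0.69) and 3 lower (Sgk1, Fkbp5 and Furin, another such protease, 40.5 to 23.2 CPM, -0.80), where 10.2% of all genes were higher and 15.6% lower. Furin was lower chiefly in the Ly6m cluster, by -1.88, and by -0.23 in the Ceacam20 cluster. The list's median was -0.24, against -0.08 over all genes read. In the Ceacam20 cluster and in the Clca1 goblet cluster 5 of the 12 were lower and Tmprss4 higher, where 14.7% of all genes were lower and 10.5% higher in the former and 10.6% and 11.6% in the latter. In both, the 5 were Hsd11b2, Sgk1, Tsc22d3, Fkbp5 and Prss8, and the interval of Prss8 included 0. In Gsdmc colonocytes Sgk1, Fkbp5 and Furin were lower and Nr3c2 higher of 12 read, against 8.73% and 10.9% of all genes. In cycling nuclei Sgk1 and Fkbp5 were lower and Nr3c1 higher of 12, against 7.21% and 12.9%. In Htr4 crypt enterocytes Fkbp5 was lower and Tmprss4 higher of 10, against 7.93% and 13.6%. In crypt base stem nuclei Fkbp5 was lower and Nr3c2 higher of 7, against 7.1% and 16.7%. The list's other genes had under 50 UMIs in these last 2 classes. Values of Hsd11b2, Tsc22d3, Nr3c2 and Nr3c1 were chosen to be given after they were seen.

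**Figure D5:**
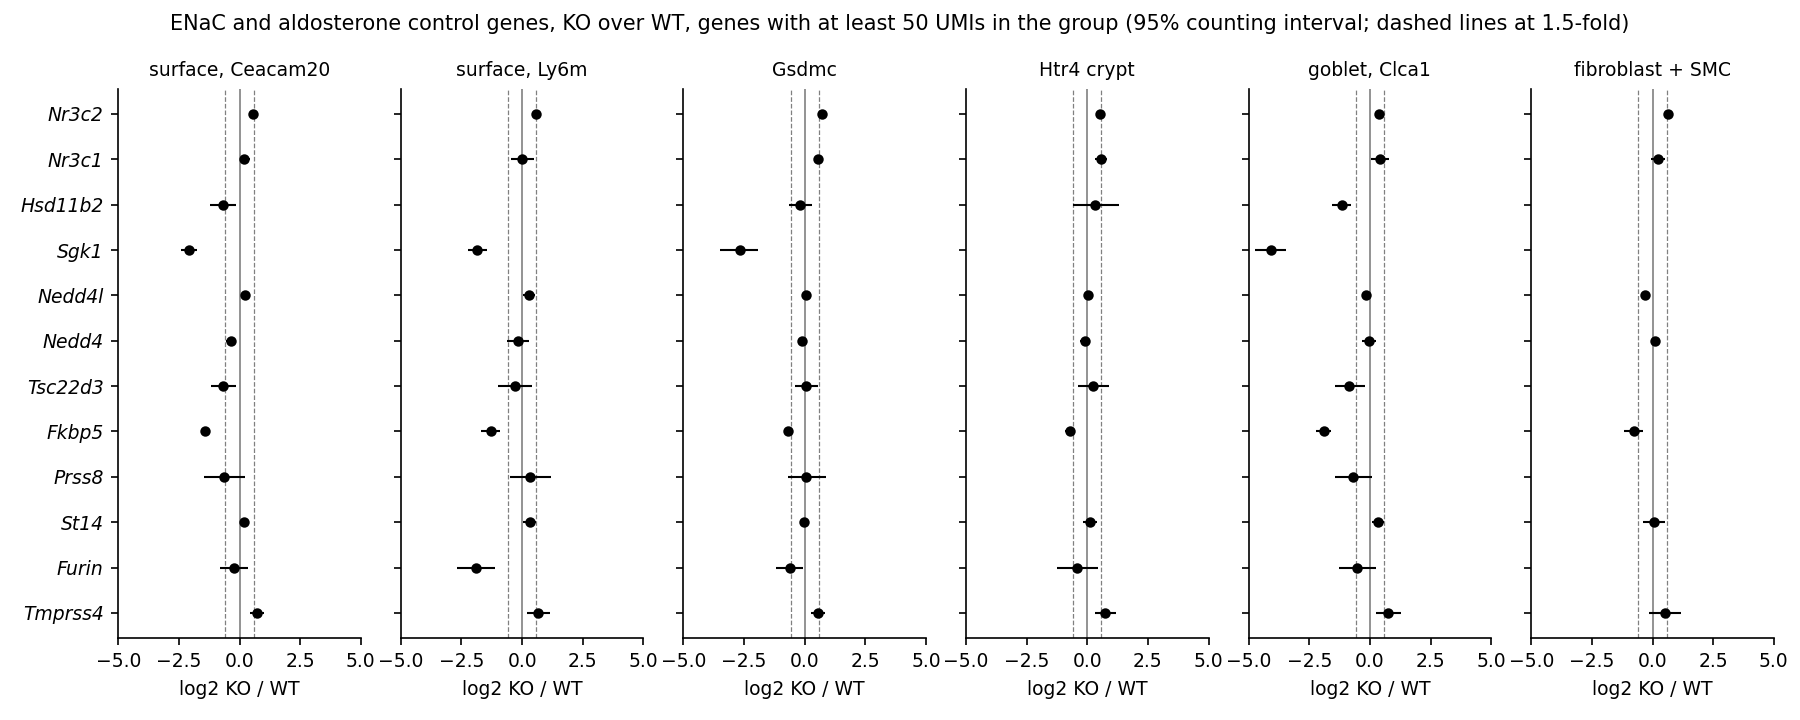
Log2 ratio of KO over WT (x axis) for the 12 genes of the ENaC and aldosterone control list (y axis) in 6 groups of nuclei, with 95% counting intervals; dashed lines mark 1.5-fold and genes under 50 UMIs have no point. Sgk1 is farthest left in the Clca1 goblet cluster (-4.07) and Fkbp5 lies left of 0 in every panel.

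The promoter windows of Scnn1g and Scnn1b are shown because these neighbours were found in the same cluster and were both lower there in KO. RefSeq gives several windows for Sgk1, and the one that holds the palindrome is shown, since Sgk1 had the lowest ratio of the list, and it is set on a start 112 kb inside the gene's outer bounds, where 1 of 13 GENCODE transcripts starts; the palindrome was found in 3 of the 32851 windows (0.00913%).
Scnn1g, chr7:121734229-121734528, plus strand: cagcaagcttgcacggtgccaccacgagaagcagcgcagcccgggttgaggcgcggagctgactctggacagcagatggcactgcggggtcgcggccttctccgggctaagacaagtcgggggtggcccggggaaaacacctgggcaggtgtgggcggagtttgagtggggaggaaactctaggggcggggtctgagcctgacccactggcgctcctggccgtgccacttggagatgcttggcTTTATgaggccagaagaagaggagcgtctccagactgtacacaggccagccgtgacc
Scnn1b, chr7:121864788-121865087, plus strand: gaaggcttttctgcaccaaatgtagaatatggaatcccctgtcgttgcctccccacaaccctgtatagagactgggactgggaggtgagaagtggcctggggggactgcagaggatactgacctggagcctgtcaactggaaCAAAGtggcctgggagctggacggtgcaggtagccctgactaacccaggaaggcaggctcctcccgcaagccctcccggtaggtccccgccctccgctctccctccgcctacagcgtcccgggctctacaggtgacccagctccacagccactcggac
Sgk1, chr10:21993640-21993939, plus strand: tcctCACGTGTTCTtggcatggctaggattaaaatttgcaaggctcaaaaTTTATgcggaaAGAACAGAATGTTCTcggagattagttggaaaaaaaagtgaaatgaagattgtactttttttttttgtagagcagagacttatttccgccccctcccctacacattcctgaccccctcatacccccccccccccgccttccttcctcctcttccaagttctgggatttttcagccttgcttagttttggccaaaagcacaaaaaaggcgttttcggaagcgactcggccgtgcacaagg
The Scnn1g window held TTTAT at bases 244 to 248 and the Scnn1b window CAAAG at bases 143 to 147. The Sgk1 window held the palindrome at bases 62 to 76, besides TTTAT and CACGTG, whose last bases are shared with a further TGTTCT. The letters of the palindrome were in neither ENaC window, which says nothing of these genes, since only 3 of the 32851 windows held it.

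Over all 10 lists, 5 of the 53 genes read in surface nuclei were higher in KO and 6 lower, and neither share exceeded the 10.2% and 15.6% of all genes. Among 9 measured genes of basolateral exit, Clcn2, a chloride channel, was higher (50.3 to 75.5 CPM, 0.59) and 2 were lower, the sodium pump subunit Atp1b3 (22.7 to 13.3 CPM, -0.78) and Fxyd4, a pump regulator (18.4 to 6.63 CPM, -1.47). In sodium-coupled solute uptake, 1 of 3 was higher, the butyrate carrier Slc5a8 (157 to 255 CPM, 0.70), and it was higher in fibroblast and smooth muscle nuclei too (65.5 to 117 CPM, 0.84). Of 9 colonocyte transcription factors Vdr, the vitamin D receptor, was higher (269 to 416 CPM, 0.63) and Cdx2 lower (37.3 to 24.8 CPM, -0.59). Vdr was higher in fibroblast and smooth muscle nuclei too, by 1.20. Of 5 measured genes of epithelial inflammation, Nos2, the inducible nitric oxide synthase, was higher (29.7 to 147 CPM, 2.304) and it was higher in the Clca1 cluster as well (14.6 to 133 CPM, 3.19). No gene passed 1.5-fold in surface nuclei among 3 of apical exchange and scaffold, 4 potassium channels, 4 of magnesium handling or 4 distal Hox genes, and none of the 4 proximal Hox genes reached 50 UMIs.

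The genes most like each member over the same 20 sums were named by a fixed rule. For Slc26a3 they were Slc20a1, Cyp3a13 and Abcb1a (r of 0.96 each), for Slc26a2 Prdx6, Naip1 and Abcb1a (0.95, 0.94 and 0.94), for Slc9a3 Cyp2c55, B4galt1 and Slc20a1 (0.94, 0.93 and 0.92), and for Slc9a2 Cyp3a13, Themis3 and Slc26a3 (0.93, 0.92 and 0.92). For Atp12a they were Rhob, Saa1 and Gm28706 (0.94, 0.93 and 0.93), the last with at most 7.57 CPM in any class. For Slc4a4 they were Plce1, Gipc2 and Thbs4 (0.93, 0.93 and 0.92), and for Trpm6 Pla2g4f, Tesk2 and Hsd3b2 (0.90 each). For Scnn1a they were Gm49431, Cxadr and Atp11b (0.97, 0.94 and 0.94), and for Scnn1g, after Scnn1b, Muc1 and Tgm5 (0.91 and 0.89). Among the members themselves the closest pairs were Scnn1b with Scnn1g (0.95), Slc26a3 with Slc26a2 (0.93) and Slc26a3 with Slc9a2 (0.92), and the most opposed was Slc4a4 with Scnn1b (-0.53).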

How the data were processed

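Nuclei from snap-frozen colon were isolated with a nuclei preparation kit and profiled with droplet-based 3' chemistry, 1 library per genotype. Per the study's methods, the authors ran Cell Ranger 7.0.1 with the mm10 (GRCm38) reference and its default cell calling. The deposited values are raw UMI counts, 1 row per gene and 1 column per called barcode, not normalized, and they were used as deposited. The assay keeps strand, so reads of the opposite-strand genes that overlap Scnn1b (Cog7), Slc9a2, Atp12a and Trpm6 are not counted for them.

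Nuclei with 400 to 5000 detected genes and at most 10% of UMIs from mt- genes were kept (4884 of 4896 and 4702 of 4772), the limits the study gives, which it also used against doublets; no doublet caller was run, and an alternative left out the top 5% of UMIs. The libraries total 13492810 and 25489277 UMIs before this filter. Libraries were integrated by canonical correlation in Seurat 5.3.0 (2000 variable features, 30 components, resolution 1, seed 1) without the 10 members and the 70 genes of 10 pathway lists, giving 26 clusters. A cluster was named for the marker list, of 16, with the highest mean log2 ratio over all other nuclei (10 CPM added), if at least 3 markers had a log2 ratio of 1 in 10% of nuclei and no other list had more markers among its 10 leading genes; a cluster with no marker among these needed a mean of 2. These naming limits were set after seeing the clusters, and 3 clusters stayed unnamed. No cluster was named as mid-crypt absorptive or tuft.

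UMIs were summed per class and library. Poisson intervals of sums, binomial intervals of shares and conditional intervals of ratios are exact, at 95%, with a floor of 3 UMIs, and cover counting error only. Calls were tested on simulated Poisson counts, the same counting model as the intervals. The simulation had no spread between nuclei or animals, so it cannot show how the calls behave under such spread. No test between genotypes was possible with 1 library each. Computations used Python 3.11.15, scipy 1.17.1, R 4.3.3 and matplotlib 3.10.9. The members, lists, markers, motifs and alternatives were chosen with earlier results of these data known. Named were all members, the list genes past 1.5-fold in surface nuclei, for each member the 3 genes with the highest Pearson r of log2(CPM + 10) over class sums, and class markers; other genes named were chosen after their values were seen, as said beside them.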

Additional observations from a re-analysis of the deposited data

Results flagged for a closer look

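Some members had log2 ratios of KO over WT past 1.5-fold with opposite directions in different groups of nuclei. Each genotype was 1 library, so these differences between groups were not tested. Slc4a4 was lower in KO in the surface class (-0.64) and in both of its clusters, at -0.61 in the Ceacam20 cluster and -0.76 in the Ly6m cluster, and higher in cycling nuclei (0.98). In the Ly6m surface cluster Slc9a3 was higher in KO by summed UMIs (0.65). There it was found in close shares of thinned nuclei, 11 of 65 in WT and 24 of 131 in KO. It was lower in Htr4 crypt enterocytes (-0.97), in goblet nuclei (-0.92), in the goblet clusters led by Slc12a8 (-0.87) and Clca1 (-1.05), and in the Gsdmc colonocyte cluster led by Gsdmc3 (-0.89). In those lower groups Slc9a3 stood at 32.5 to 49.0 CPM in WT, near the fibroblast and smooth muscle level of 45.6 CPM, which was itself lower in KO by -0.64.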

How the results depend on the processing

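No paired analysis was possible because each genotype was 1 library. For the same reason no replicate could be left out. Of the counts past 1.5-fold, 4 moved by more than 1.5 times. With every nucleus thinned to 1000 UMIs, 7 list genes in surface nuclei passed in place of 11, with 38 in place of 53 read. With no minimum UMI count, 5 members and 21 list genes passed there. The members' increase was Scnn1b, which did not exceed the background, and Scnn1g. Scnn1g stood at 7.03 CPM in WT, near the background, and at 4.10 CPM in KO, above it. With KO clusters weighted by their WT share, 3 members passed over all nuclei in place of 5.

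In surface nuclei Atp12a (-1.005 to -0.61) and Trpm6 (-0.92 to -0.64) were past 1.5-fold under all 12 alternatives. Slc4a4 ranged from -1.35 to -0.40 and passed in 9, Slc26a2 from -0.72 to -0.33 and passed in 4, and Slc9a3 from -0.84 to -0.04 and passed in 1. Slc26a3 (0.08 to 0.45), Slc9a2 (0.22 to 0.40) and Scnn1a (0.02 to 0.50) passed in none. The surface class held 222 to 408 WT and 401 to 706 KO nuclei over the ways of clustering. It was 2 clusters in the main setting and at resolution 2, and 1 cluster in the other clusterings. Ratios in the other classes, in the Ly6m cluster and in the goblet clusters, the Clca1 cluster among them, were not rerun under the alternatives. In surface nuclei and over all nuclei, no member's value past 1.5-fold with at least 50 UMIs changed sign. Scnn1g in surface nuclei, under that minimum, went from -0.78 to 1.23 with the fibroblast and smooth muscle level subtracted and to 0.79 with no integration. The cause of these shifts was not tested.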
